A study of Mus musculus with 2 samples.

Results

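Fascial-type fibroblasts are described here as the barcodes of mouse tibialis anterior (TA) muscle in which Prg4, Comp, Cilp and Gdf10 transcripts meet those of decorin (Dcn), the proteoglycan made by nearly all fibroblasts. The members were chosen on measured counts. A barcode had to hold at least 4 unique molecular identifiers (UMIs, the count of captured transcripts) of the 4 marker genes together and at least 5 of Dcn. It could hold none of the tenocyte genes Tnmd and Thbs4, the endothelial gene Pecam1, the leukocyte gene Ptprc or F2rl1, and at most 1 of Dpp4 and Pi16 together. In all, 170 of 27383 filtered barcodes qualified, or 170 of the 4769 with at least 5 Dcn UMIs, called Dcn-5+ from here on. They were 104 barcodes of the library labelled WT (the WT library) and 66 of that labelled KO (the KO library).

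The series asks, by its title, about the need of muscle-resident mesenchymal progenitors for their own IGF-I. It holds 1 single-cell 3′ library per genotype, WT and KO, each pooled from 10 TA muscles of 5 male mice and sorted for viability with propidium iodide, and the labels give both the same batch number. The labels call the cells FAPs (fibro-adipogenic progenitors), do not say which allele, promoter or Cre makes the KO, and give no age. With 1 pooled library per genotype there is no replicate, so no test between the libraries was possible, and every interval below covers counting error only.

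Fascia is the layered collagen sheet around and between muscles, and its fibroblasts lay down matrix and the lubricants that let the layers glide. Prg4 encodes lubricin, a boundary lubricant known from joint surfaces and sliding tissue planes. Comp and Cilp encode matrix proteins of cartilage, tendon and other loaded connective tissue, and Cilp is also known to bind TGF-beta. Gdf10 encodes a secreted ligand of the TGF-beta superfamily.

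The 2 libraries were not of equal depth. Filtered barcodes held 36706818 UMIs in the WT library and 99823390 in the KO library, and the members held 658214 and 697552. Median UMIs per member were 5991 (range 1301 to 15745) and 9418 (1917 to 35368), against 5172 and 6619 in the other Dcn-5+ barcodes. Of the deposited barcode sequences 61 occurred in both libraries, but none of them was a member. The KO library also held a cluster of 823 Dcn-5+ barcodes with a median of 1628 UMIs and no counterpart in the WT library, led by Fabp4, Esam and Tinagl1 and without a single member. Its part in the shares given next is shown by leaving it out.

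Members made up 4.69% of Dcn-5+ barcodes in the WT library (95% Clopper-Pearson interval 3.85 to 5.65) and 2.59% in the KO library (2.01 to 3.28). The order of these shares was not stable. Without the KO-only cluster the share in the KO library was 3.82%. When every barcode was first thinned to 2000 UMIs, the shares were 3.31% (67 of 2024) and 3.93% (65 of 1653), so the KO library then had the higher value. Most barcodes with 4 or more marker UMIs were lost to the tendon limit: 792 and 634 Dcn-5+ barcodes met the marker sum, and 173 and 150 of them were free of Tnmd and Thbs4.

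Prg4 carried most of the marker signal. It stood at 1010 CPM (the usual depth-scaled count, from the summed UMIs of the group; 95% Poisson interval 935 to 1090) in members of the WT library and 2234 CPM (2124 to 2347) in those labelled KO. It was present in 69 of 104 and 56 of 66 members, with a median of 2.5 and 9 UMIs per cell and a maximum of 83 and 124. Prg4 thus gave 51.9% and 84.5% of the marker UMIs. Counts from the 3′ end do not grow with transcript length, so these shares compare transcripts.

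The other markers were lower in the members of the KO library. Gdf10 stood at 409 and 242 CPM in 73 and 41 members. Cilp stood at 380 and 123 CPM in 74 and 23 members. Comp was the sparsest, at 147 and 43.0 CPM in 22 and 10 members, and single cells held 24.7% and 23.3% of its UMIs. For Prg4, Gdf10 and Cilp the order of the libraries was the same at equal depth: among members thinned to 2000 UMIs (101 and 65, with 3 and 1 shallower members left out), Prg4 was found in 58.4% and 70.8%, Gdf10 in 50.5% and 32.3% and Cilp in 48.5% and 24.6%. Comp was then found in 11.9% and in 1 cell (1.54%), too few to order the libraries. Since these 4 genes chose the members, the values describe the choice.

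Each marker had a different reach beyond the members. The Tnmd/Thbs4 group, Dcn-5+ barcodes with 4 or more UMIs of those tenocyte genes and no Pecam1 or Ptprc (686 and 500 barcodes), had Prg4 at 1140 and 824 CPM, Comp at 691 and 410 and Cilp at 967 and 570. Gdf10 alone was nearly missing there, at 5.78 and 1.68 CPM. In barcodes that met every other limit of the rule but had fewer than 4 marker UMIs (689 and 380), called within-limits barcodes below, Prg4 stood at 15.4 and 9.68 CPM and Gdf10 at 17.3 and 6.77. In endothelial-type barcodes (at least 2 Pecam1 UMIs and no Dcn), which should lack these genes, 5.55% and 11.3% had a Prg4 UMI at median depths of 2835 and 4983, against 66.3% and 84.8% of the members. For Comp the same shares were 1.04% and 0.595%, and for Cilp and Gdf10 they lay between 0.116% and 0.662%.

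**Figure D1:**
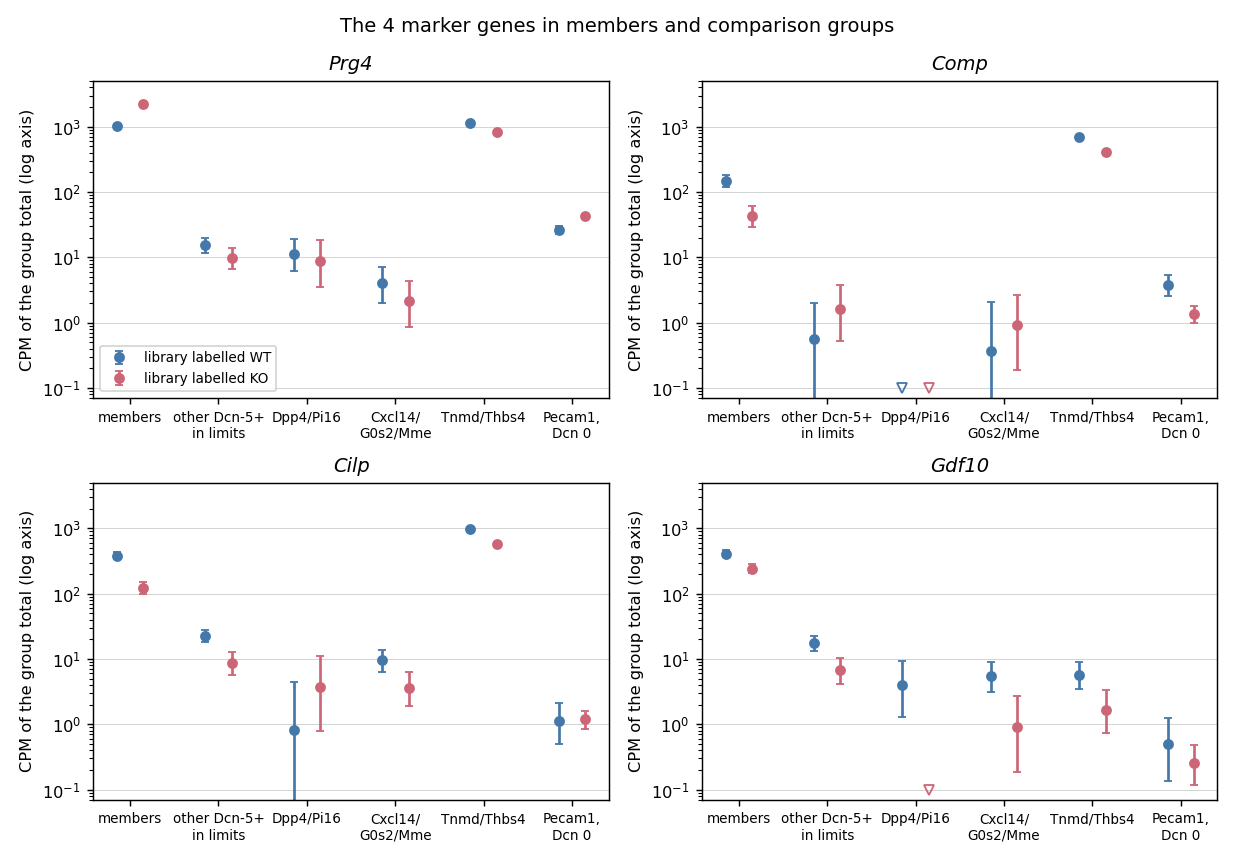
Level of Prg4, Comp, Cilp and Gdf10 in the members and 5 comparison groups of barcodes, as CPM of each group's summed UMIs on a log axis, with 1 point per library and 95% Poisson intervals; open triangles at the bottom stand for 0 UMIs. Prg4, Comp and Cilp are higher in the Tnmd/Thbs4 group of the WT library than in its members, while Gdf10 is at 409 CPM in its members and 5.78 CPM in that group.

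Individual members rarely held all 4 markers. All 4 were seen in 4 and 5 members, 3 in 39 and 8, 2 in 44 and 33, and a single one in 17 and 20. Prg4 was the most abundant marker in 44 members of the WT library and 47 of the KO library, Gdf10 in 24 and 15, Cilp in 26 and 2, and Comp in 5 and 0, while 5 and 2 members had ties. Prg4 and Gdf10 occurred together in 43 and 33 members. Members led by Prg4 were therefore 42.3% of the members in the WT library and 71.2% in the KO library, and counts over Prg4-led members alone are given with the other alternatives.

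**Figure D2:**
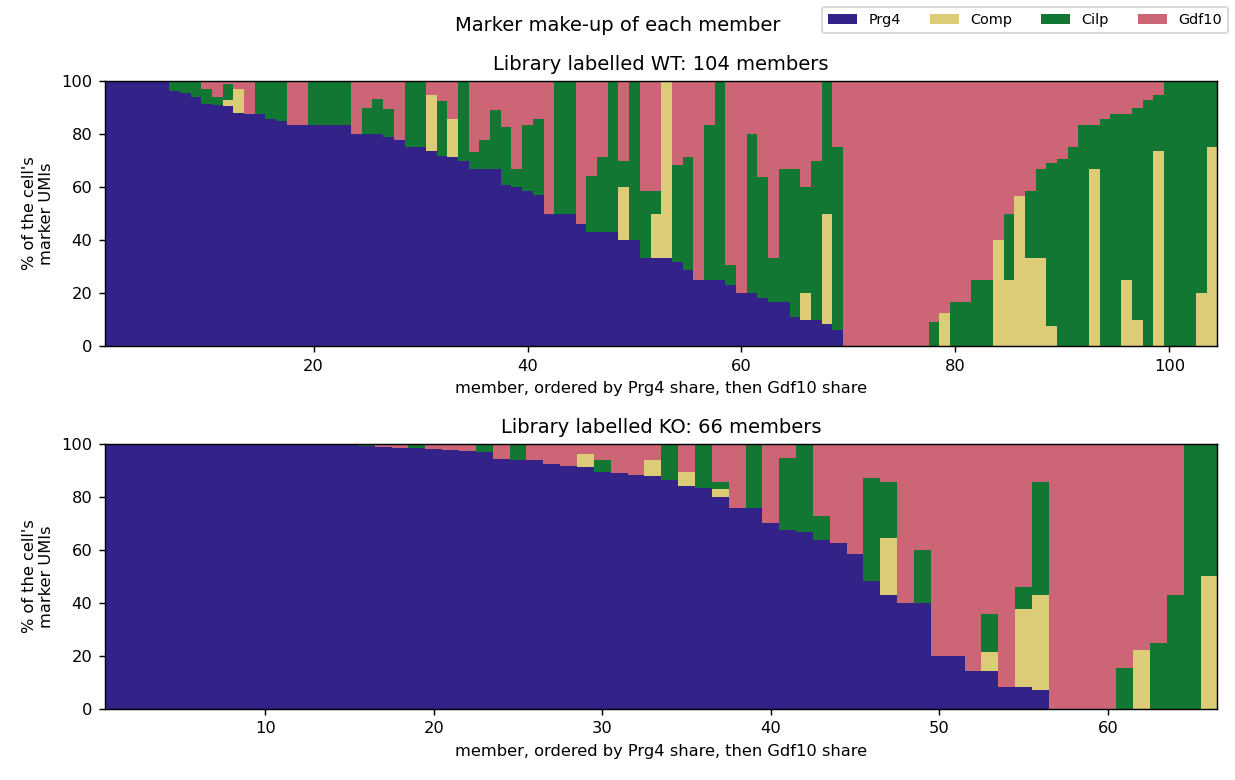
Share of each member's marker UMIs given by Prg4, Comp, Cilp and Gdf10 in percent, with 1 bar per member ordered by its Prg4 share and then its Gdf10 share, for 104 members of the WT library and 66 of the KO library. Cilp-led members are 26 in the upper panel and 2 in the lower one.

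Few barcodes lay exactly at the threshold or just below it. Barcodes with 3 marker UMIs that met all other limits numbered 19 and 6, with Prg4 at 175 and 92.6 CPM. Those with exactly 4 numbered 14 and 4, with Prg4 at 229 and 324 CPM. The median member had 8 and 13.5 marker UMIs, and 45 members of the WT library and 17 of the KO library had 4 to 7.

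The label was checked against markers of fibroblasts and of other cell types. All 9 fibroblast markers were detected, with a summed level of 42008 and 35916 CPM, against 37539 and 24662 in the other Dcn-5+ barcodes. Dcn, which the rule requires in members and others alike, gave 15948 and 13844 CPM of the members' sum, so its detection is no check. Pdgfra, the receptor that marks muscle mesenchymal progenitors, stood at 940 and 569 CPM in members, against 509 and 237. In within-limits barcodes it stood at 821 and 424 CPM. Gsn stood at 14778 and 16531 CPM in members, against 7368 and 6015, and Col3a1, Lum and Col6a3 were also higher in both libraries. Col1a1 was lower in members, at 1588 and 595 CPM against 2793 and 973. Col1a2 (3061 and 1267 against 3744 and 1498) and Cd34 (371 and 208 against 408 and 237) were lower too. Of the 7 chondrocyte markers Acan, Col2a1, Col9a1, Matn3 and Snorc had 0 UMIs in both libraries, which allows up to 4.56 CPM in the WT library and slightly less in the KO library. Sox9, a chondrocyte factor, stood at 56.2 and 31.5 CPM in members, in 25% and 19.7% of them, against 55.4 and 51.0 CPM in the others. Hapln1 had 0 UMIs in the WT library and 5 in the KO library (7.17 CPM against 1.13 in the others). Of the 9 genes listed for the synovial lining, where Prg4 is also made, Col22a1 was at 0, Htra4, Tspan15 and Clic5 stood at no more than 4.56 CPM. Creb5 stood at 222 and 67.4 CPM, Cd55 at 76.0 and 47.3, and Hbegf at 22.8 and 38.7, each below the others. Vcam1 stood at 62.3 and 63.1 CPM against 32.0 and 40.5 in the others. Prg4, which the rule uses, gave most of the summed 1404 and 2453 CPM. No list of the check is specific to fascia, so the name fascial-type rests on the 4 markers.

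Summed traces of other cells were small, apart from red cell transcripts. The 8 tenocyte markers, of which the rule sets Tnmd and Thbs4 to 0, summed to 147 and 120 CPM, against 7430 and 5928 in the others. They were found in 35 and 33 members, and 1 cell of the WT library reached 3191 CPM. The 6 myogenic markers summed to 30.4 and 41.6 CPM, above the 19.7 and 26.3 of the others, with Msc giving 28.9 and 37.3. The 9 endothelial markers summed to 22.8 and 120 CPM in members, with Pecam1 at 0 by the rule and Cldn5 and Egfl7 also at 0 in both libraries. The 9 immune markers summed to 9.12 and 20.1 CPM, 7 mural markers to 97.2 and 88.9, and 7 myofibre markers to 173 and 153. Adipoq, Plin1, Cidec and Lep, which define adipocytes, were at 0. The 4 erythroid markers summed to 6.08 CPM in the WT library and 767 CPM in the KO library, where 1 cell reached 41025 CPM, and their part in the results was not tested.

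Transcripts other than the markers set most members close to one another. Dcn-5+ barcodes were clustered without any gene of the rule. One cluster of 432 barcodes, led by C7, Inmt, Hmcn1, Plcxd3, Tspan11 and Gabra3, held 77 of 104 members of the WT library (74.0%, 64.5 to 82.1) and 56 of 66 of the KO library (84.8%, 73.9 to 92.5). Among the 20 nearest neighbours of a member, 35.2% and 34.1% on average were members, against 3.56% of all Dcn-5+ barcodes. The latter share also counts the tendon-type, endothelial and Dpp4/Pi16-rich barcodes that the rule excludes, so part of the excess was fixed by the choice of members. Within-limits barcodes numbered 1069 in both libraries together, beside the 170 members. Another 20 members of the WT library, and none of the KO library, lay in a cluster led by Pde11a, Trhde and Mme, which held 67.6% of the WT barcodes chosen on Cxcl14, G0s2 and Mme. A cluster led by Dio2, Ccl2 and Thbs1 held 1 and 6 members.

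The rule takes in only a minority of the main cluster. Members were 29.7% and 32.4% of its barcodes in the 2 libraries. Of the 182 and 117 barcodes it held that were not members, 117 and 57 had a marker sum under 4, 50 and 37 held Tnmd or Thbs4, 36 and 35 held more than 1 UMI of Dpp4 and Pi16, and 40 and 31 held Pecam1 or Ptprc. The cluster as a whole was 11.7% and 6.78% of Dcn-5+ barcodes, or 10.0% in the KO library without the KO-only cluster.

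**Figure D3:**
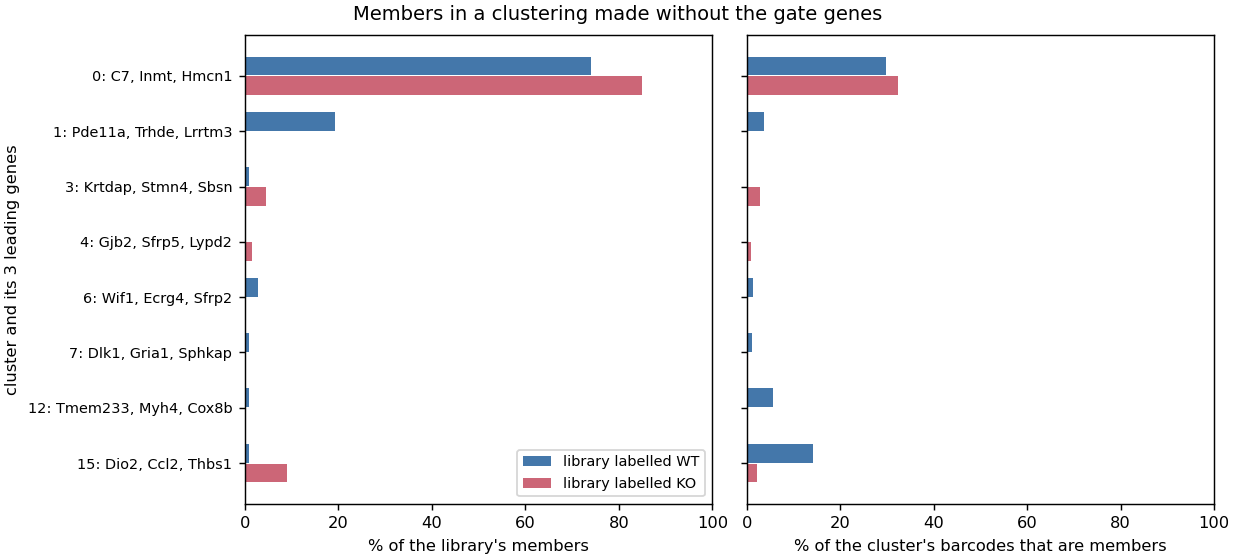
For each cluster of Dcn-5+ barcodes, made without the genes of the rule and named by its 3 leading genes, the bars give the share of all members that fell in it and the share of its barcodes that were members, in percent and per library. The cluster led by C7, Inmt and Hmcn1 holds 74.0% and 84.8% of the members, which are 29.7% and 32.4% of it.

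Genes outside the rule that were higher in members included the complement genes C7 and C4b, Fst, Fgf7 and the transcription factors Klf5 and Osr1. Counts were summed over members and over the other Dcn-5+ barcodes of each library. The 6573 genes examined had at least 20 CPM in the members of both libraries or in the others of both. They also had at least 20 UMIs in the members of both or in the others of both. The group could differ between these floors, so a gene at 20 CPM in members could hold fewer than 20 UMIs there. Of these 52 (0.791%) were at least 2-fold higher in members in both libraries and 211 (3.21%) at least 2-fold lower. The median gene differed by -0.03 and -0.06 on the log2 scale (log2 of CPM plus 1). These are ratios between pools of cells with no test. The others still hold the tendon-type, endothelial, leukocyte and Dpp4/Pi16-rich barcodes that the rule removes from the members.

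Some complement genes passed 2-fold and others did not. C7, a component of the membrane attack complex, stood at 1264 CPM in members and 218 in the others in the WT library (log2 ratio 2.53), and at 1062 and 79.9 CPM in the KO library (3.72). It was found in 69.2% of members against 19.5% of the others, and in 45.5% against 7.61%. Cfb, factor B of the alternative pathway, had ratios of 1.31 and 1.18. C4b, at 59.3 and 55.9 CPM in members, had ratios of 2.04 and 1.68, with 25.6% of its UMIs in 1 cell of the KO library, and C2 had ratios of 1.03 and 1.35. C3, C1ra and C1s1 did not pass, with ratios of 0.41 and 0.91, 0.43 and 0.37, and 0.67 and 0.92, and 1 cell held 49.5% of the C3 UMIs in members of the KO library. Complement is a cascade of serum proteins that fibroblasts are also known to make.

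The 22 genes compared of the 32 on the list of chemokines, cytokines and complement held 6 that were at least 2-fold higher, among them C2, C4b, C7, Cfb and Cxcl12, and 5 that were at least 2-fold lower. Cxcl12, the CXCR4 ligand, stood at 383 and 357 CPM in members, with ratios of 1.63 and 1.25. The lower genes were Cxcl2, Cxcl10, Il33, Il34 and Cd55, of which Il33 stood at 62.3 and 74.5 CPM in members. The list's median ratio was 0.41 and 0.16.

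Fst and Acvr2a were the higher genes of the BMP and TGF-beta list. Fst, whose product follistatin traps activins and related ligands, stood at 327 CPM in members and 78.6 in the others (2.04), and at 532 and 118 CPM in the KO library (2.16). Acvr2a, an activin receptor, had ratios of 1.41 and 1.31. Among 35 compared of the 51 listed, these 2 were at least 2-fold higher and Bmp6, Bmp7 and Bmpr1b at least 2-fold lower, and the list's median was 0.05 and -0.09. Gdf10, the member of that family used in the rule, is not counted.

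Fgf7 and Fgf10, ligands of the epithelial FGF receptor form, were the higher genes among 20 compared of the growth factor list. Fgf7 stood at 97.2 and 146 CPM in members against 26.9 and 26.2 CPM (ratios 1.81 and 2.43). Fgf10 was sparse, at 21.3 and 24.4 CPM against 4.23 and 2.31. Pdgfa and Angptl7 were lower. Penk, which encodes proenkephalin, stood at 392 and 317 CPM against 127 and 68.6 (1.62 and 2.19), and Wnt11 was the 1 gene higher among 18 compared of the WNT list, with ratios of 1.07 and 1.13.

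Matrix and enzyme genes were among the leading names too. Inmt, an indolethylamine methyltransferase, stood at 747 and 407 CPM in members against 146 and 46.0 CPM (2.35 and 3.12). Hmcn1, which encodes the large extracellular protein hemicentin, had ratios of 1.95 and 2.33. Adamts12, a secreted metalloprotease, stood at 550 and 300 CPM (1.19 and 1.505). Fmo2, a flavin monooxygenase, Cygb, the globin cytoglobin, and Xdh, xanthine dehydrogenase, had ratios of 2.04 and 2.02, 1.22 and 1.83, and 1.23 and 1.31. Myoc, which encodes the secreted protein myocilin, had the highest level of the 24 leading genes, at 1606 and 1209 CPM, with ratios of 1.19 and 1.35.

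Klf5 and Osr1 were the transcription factors at least 2-fold higher among 22 compared of the 55 listed. Klf5 stood at 108 and 194 CPM in members, with ratios of 1.43 and 1.95. Osr1, known as a marker of fibro-adipogenic progenitors and their embryonic source, stood at 95.7 and 96.1 CPM, against 44.4 and 17.5 CPM in the others (1.09 and 2.39). The tendon factors Scx and Mkx were the lower ones.

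**Figure D4:**
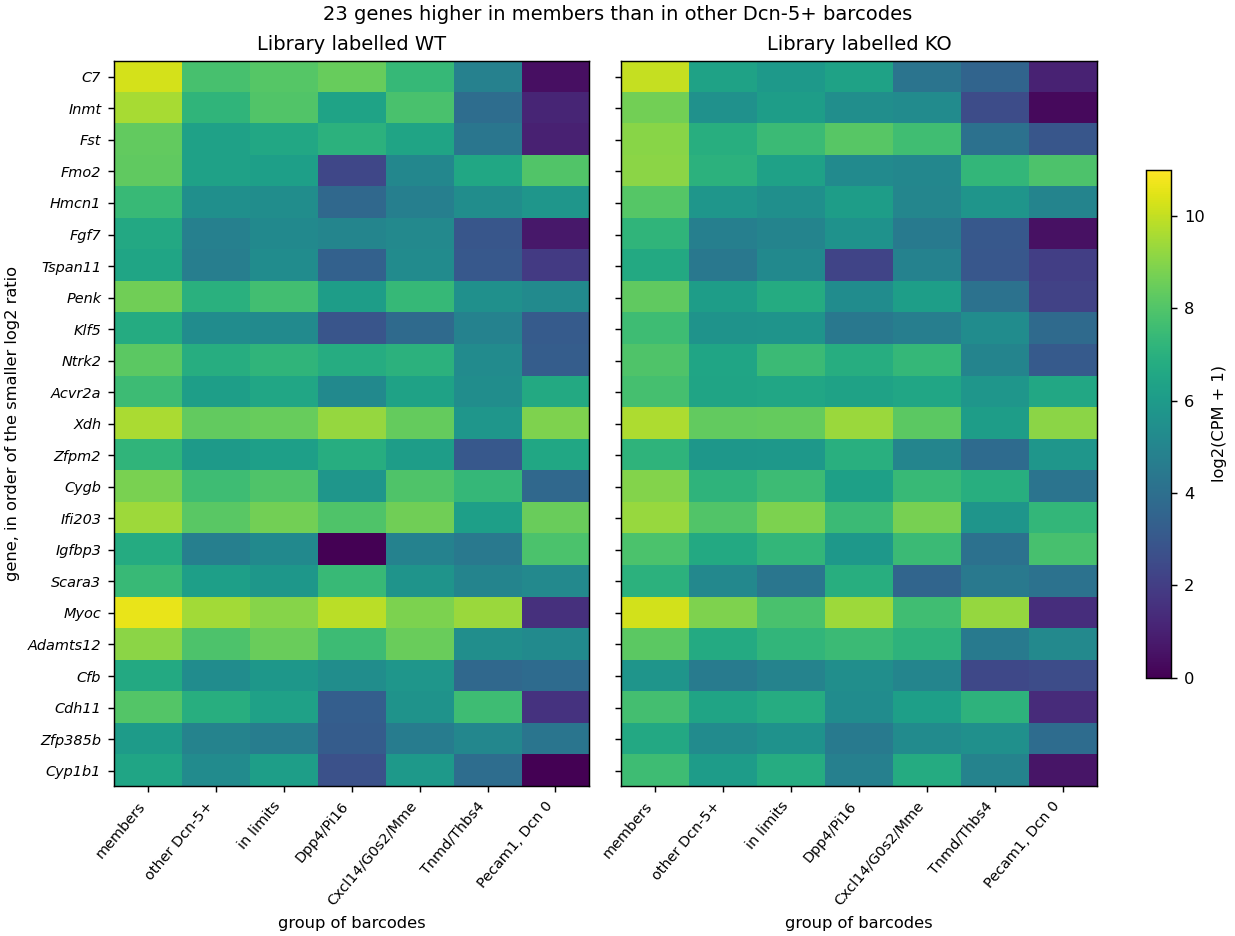
Level of 23 of the 24 genes with the largest smaller-of-both-libraries ratio, as log2(CPM + 1) by color, in members and the comparison groups of each library. C7 stands at 1264 and 1062 CPM in members and at 346 and 80.5 CPM in the Dpp4/Pi16 group, its next highest column. Xdh, at 770 and 811 CPM in members, also stands at 610 and 640 CPM in the Dpp4/Pi16 group and at 473 and 537 CPM in endothelial-type barcodes.

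These 24 genes did not mark members in an all-or-none way. Their summed level was 3282 and 2770 CPM in within-limits barcodes with no marker UMI, 6468 and 4970 CPM with 1 to 3, 10040 and 8530 CPM with 4 to 7, and 10416 and 10146 CPM with 8 or more. It was thus between the extremes in barcodes just short of the threshold. The genes were picked on the contrast with members, so this gradient is a description. Per cell the median was 10441 and 8752 CPM in members, 3073 and 2985 CPM in the Dpp4/Pi16 group, 2579 and 1978 CPM in the Cxcl14/G0s2/Mme group and 1084 and 1293 CPM in the Tnmd/Thbs4 group.

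Against the within-limits barcodes, which share every exclusion of the rule, genes with ratios above 1 in both libraries included C7, Inmt and Scara3. Fst, Fmo2, Hmcn1, Fgf7, Klf5, Acvr2a, Xdh and Myoc had such ratios as well, from 1.04 (Acvr2a, WT library) to 2.79 (Fmo2, KO library). C7 had 2.20 and 4.12 on the log2 scale, and Inmt had 1.52 and 2.57. Scara3, a scavenger receptor class A gene, had 1.55 and 2.78. Cyp1b1 had 0.30 and 0.76, Ifi203 0.75 and 0.48, and Igfbp3 1.51 and 0.60. Adamts12 had 0.61 and 0.98, Cfb 0.85 and 0.82, and Ntrk2 1.02 and 0.45. Penk had 0.96 and 1.56, Cygb 0.82 and 1.45, Osr1 0.64 and 1.72, and Wnt11 0.91 and 1.21. Cyp1b1 and the genes named after it were thus at least 2-fold higher in 1 library or in neither.

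Lower genes included some of tendon, mural cells and muscle fibres. Ptx4, a pentraxin gene, had no UMI in any member, against 77.2 and 58.7 CPM in the others, which makes it at least 16.9-fold and 13.6-fold lower with a floor of 3 counts per library. It was also at 0 in the within-limits barcodes and at 246 and 183 CPM in the Tnmd/Thbs4 group. Rgs5, a pericyte gene, had ratios of -2.60 and -4.40, and the muscle fibre genes Mylpf and Acta1 had -2.07 and -3.48 and -1.72 and -3.08. In the KO library Mylpf and Acta1 stood at 15.8 and 41.6 CPM in members. They were at 13.8 and 26.4 CPM in the Dpp4/Pi16 group there, so such low levels were not particular to members. In the WT library they stood at 19.8 and 38.0 CPM in members and at 151 and 185 CPM in that group. Tek, an angiopoietin receptor, had -1.67 and -1.55, and stood at 513 and 365 CPM in the Dpp4/Pi16 group. Fibin had -1.91 and -1.74 against all others but -0.20 and 0.05 against the within-limits barcodes. The 12 named here by rule also include Hbegf, Basp1, Gpcpd1, Sipa1l1, Rdh10 and Pakap, with ratios from -2.37 to -1.47.

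In the cartilage and tendon matrix list the direction depended on the reference. The rule removes barcodes with Tnmd or Thbs4 from the members and leaves them in the others, so lower tendon genes were fixed by the choice of members. Of 28 genes compared from 41 listed, 14 were at least 2-fold lower and none higher, with medians of -1.17 and -1.37. Fmod, a collagen-binding small proteoglycan of tendon, stood at 42.5 and 25.8 CPM in members, against 5490 and 3494 CPM in the Tnmd/Thbs4 group. Kera stood at 1.52 and 1.43 CPM against 1337 and 522. The others that were lower are Chad, Cilp2, Col11a1, Col12a1, Col22a1, Tnc, Thbs2, Sox6, Scx, Mkx, Ecrg4 and Angptl7. Against the within-limits barcodes the medians were 0.56 and 0.02, and Fmod had ratios of 3.07 and 1.42, with 50% and 38.9% of its UMIs in 1 member.

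Lubrication genes other than Prg4 differed by the reference taken. Of 11 compared from the 21 of the hyaluronan and lubrication list, none was 2-fold higher than in all other Dcn-5+ barcodes, and Vtn was lower. Has1, a hyaluronan synthase, stood at 299 and 472 CPM in members against 351 and 383 (-0.23 and 0.30). Against within-limits barcodes its ratios were 2.53 and 1.17. Clu, the secreted chaperone clusterin, had 0.96 and 0.24 against all others and 3.36 and 2.65 against the within-limits barcodes. Tnfaip6, which binds hyaluronan, stood at 1855 and 1018 CPM, with 0.80 and 0.37, and 1.28 and 0.79.

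In several other lists the share of lower genes was above the 3.21% over all genes. The reference was the same others, which hold tendon-type, endothelial, leukocyte and Dpp4/Pi16-rich barcodes. From the collagens 5 of 25 compared were lower (Col11a1, Col12a1, Col18a1, Col22a1, Col23a1) and none higher. Against within-limits barcodes Col18a1 and Col23a1 stayed at least 2-fold lower in both libraries, and Col11a1, Col12a1 and Col22a1 did not. The Dpp4/Pi16 state had 5 lower genes of 22 (Cd55, Sema3c, Anxa3, Efhd1, Limch1) and medians of -0.74 and -0.28, which turned to 0.43 and 0.83 against within-limits barcodes. Among 22 of the Cxcl14/Col15a1 state Penk, Cxcl12 and Ntrk2 were higher and Mme and Fbln7 lower. Mechanical response genes had 5 of 23 lower (Ccn1, Ccn4, Tagln, Acta2, Postn). Against within-limits barcodes their medians were 0.07 and -0.0019. Tagln, Acta2 and Postn stayed at least 2-fold lower there in both libraries, and Ccn1 and Ccn4 did not. Lipid genes had Rbp4 higher and Fabp4, Cd36, Dlk1 and Aldh1a3 lower of 19. Fabp4 and Cd36 are also on the endothelial list. The rule removes barcodes with Pecam1 from the members only, so lower values of these 2 genes were favoured by the choice of members. None of 29 dissociation genes and none of 17 unfolded protein genes passed in either direction. The states and several lists had been drawn up with these libraries in view, so their counts are no independent evidence.

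The IGF axis, the subject of the series, was mostly level between members and others. Of 15 genes compared from 21, Igfbp3 alone was at least 2-fold higher in both libraries, at 106 and 234 CPM in members against 25.5 and 101 CPM (2.02 and 1.21), and none was lower. Igf1 itself stood at 266 and 252 CPM in members against 336 and 268 CPM (-0.34 and -0.09). The list's median was -0.0026 in the WT library and -0.08 in the KO library.

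Members led by Prg4, and those led by Gdf10, were each compared with the members led by another marker, called the rest here. The 5 and 2 members with ties were left out. Hmcn1 stood at 330 CPM in Prg4-led members and 67.0 CPM in the rest in the WT library (2.28), and at 392 and 76.6 CPM in the KO library (2.34). Mrtfa, a cofactor of serum response factor, had 1.95 and 1.93, and Socs2, a suppressor of cytokine signalling, had 1.59 and 1.80, while Carnmt1 and Fbxl20 had ratios from 1.47 to 1.65. In Gdf10-led members C7 was higher than in the rest, at 2047 against 997 CPM and at 2127 against 662 CPM (1.04 and 1.68). Ephb2, Fbln1 and Slc43a3 had ratios from 0.72 to 1.23. These groups hold 44 and 47 Prg4-led and 24 and 15 Gdf10-led cells, and 11 to 423 UMIs of each named gene in them. The rest held fewer: in the KO library, 4 UMIs of Mrtfa and 5 of Fbxl20, and 7 of Carnmt1 in each library. Carnmt1 and Ephb2 fell short of the floor of 20 UMIs. In the KO library the rest for Prg4-led members was 15 Gdf10-led and 2 Cilp-led cells. There the comparisons of Prg4-led and of Gdf10-led members are thus nearly the same one reversed.

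Between the libraries, members of the KO library had higher levels of Sdc4, the actin genes Actg1 and Actb, and Thbs1, and lower levels of Angptl1 and of the collagen genes Col1a1 and Col1a2. Of 4663 genes that reached 20 CPM in either library and 50 UMIs over both, 194 (4.16%) were higher in the KO library by 2-fold or more and 165 (3.54%) were lower by as much, with a median of 0.04. Genes are named here only with at least 50 CPM in 1 library, 100 UMIs over both and no more than 20% of the UMIs of a group in 1 cell, and not where barcodes without Dcn stood over 5 times higher, and genes of the lists outside these limits are given with their lists. In the other Dcn-5+ barcodes 318 (4.31%) were higher and 154 (2.09%) lower of 7376. Genotype, pool of mice and library cannot be told apart here, and fewer or more cells of a state and a changed level per cell cannot be told apart in these sums.

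Igf1 is given here because the series is about IGF-I, though a 3′ count does not check a deletion elsewhere in the gene. Members had 175 Igf1 UMIs in the WT library (266 CPM) and 176 in the KO library (252 CPM), a ratio of -0.08 (95% counting interval -0.39 to 0.23). In the other Dcn-5+ barcodes the ratio was -0.33. Of 14 IGF axis genes compared, Igfbp3 (106 and 234 CPM, 1.13) and Pappa, a protease that cleaves IGF-binding proteins (105 and 301 CPM, 1.51), were higher and Igfbp5 (787 and 384 CPM, -1.03) lower. The other Dcn-5+ barcodes had 1.94, 0.63 and -1.36 for these 3 genes.

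Within these limits the largest ratio upward belonged to Sdc4, the heparan sulfate proteoglycan syndecan-4, at 167 and 824 CPM (2.30, interval 2.01 to 2.61). The actin genes Actg1 (503 and 2325 CPM, 2.21) and Actb (1515 and 4308 CPM, 1.51) were next to it in kind. Nolc1, Wdr43, Ddx21 and Nop56, which act in ribosome assembly, had ratios from 1.49 to 1.73. Slc25a5, Slc16a1 and Naa50 had ratios of 1.68, 1.55 and 1.48. In the other Dcn-5+ barcodes these 10 genes had ratios from 0.87 to 1.79, so the direction was not one of members alone.

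Thbs1, which encodes thrombospondin-1, stood at 435 and 1809 CPM (2.06, interval 1.87 to 2.25), and Tnfrsf12a, the TWEAK receptor, at 59.3 and 227 CPM (1.92). Both had the same size of ratio in the others, 2.16 and 1.92. Ccn2, connective tissue growth factor, stood at 245 and 847 CPM in members (1.79, interval 1.54 to 2.05) and at 1311 and 1637 CPM in the others (0.32), although within-limits barcodes had 1.57. The Tnmd/Thbs4 group, where Ccn2 stood at 3917 and 3884 CPM, is part of the others.

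Thbs1, Tnfrsf12a and Ccn2 belong to a list of genes of a F2rl1/Thbs1 state, of which 7 of 14 compared were at least 2-fold higher and none lower, with a median of 1.03 in members and 1.00 in the others. The list was partly drawn from these libraries, and barcodes with F2rl1 were removed by the rule. Ccl2, Ccl7, Timp3 and Heatr1 were the other genes higher. Ccl2 stood at 6.08 and 277 CPM (5.29), but 1 cell held 83.9% of its UMIs in the KO library. Cxcl13, at 9.12 and 291 CPM (4.85), likewise came from 1 cell to 95.1%. Timp3, an inhibitor of metalloproteases, had 848 and 1960 CPM (1.21).

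Among genes lower in the KO library, Angptl1 had the smallest ratio within the same limits. Angptl1, an angiopoietin-like secreted protein, stood at 188 and 60.2 CPM (-1.63, interval -2.19 to -1.13; -1.13 in the others). The type I collagen genes were lower in members and in the others. Col1a1 stood at 1588 and 595 CPM in members (-1.41) and had -1.52 in the others, and Col1a2 stood at 3061 and 1267 CPM (-1.27), with -1.32 in the others. Of 20 collagen genes compared 5 were at least 2-fold lower (Col1a1, Col1a2, Col3a1, Col5a1, Col6a6), 15 did not pass and none was higher, with medians of -0.68 in members and -0.65 in the others. Fap, a fibroblast surface protease, stood at 293 and 113 CPM (-1.36), and Fndc1 at 369 and 143 CPM (-1.36).

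Small proteoglycans of the collagen fibril were among the lower genes. Ogn, osteoglycin, stood at 2299 and 956 CPM (-1.26), and Aspn, asporin, at 659 and 255 CPM (-1.37). Prelp and Omd were lower as well and Vcan, the large hyaluronan-binding versican, was higher (286 and 669 CPM, 1.23), so 4 were lower and 1 higher of 13 compared. Ugdh, which makes the sugar precursor of hyaluronan, stood at 474 and 1015 CPM in members (1.10) and had 0.04 in the others. Vcan and Ugdh were the genes higher among 9 of the hyaluronan list. The elastic fibre genes Eln and Ltbp1 were the lower ones of 15 compared.

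Some of the lower genes had little or no such ratio outside the members. Adamts4, an aggrecan- and versican-cleaving protease, stood at 289 and 106 CPM in members (-1.44, interval -1.85 to -1.05), and at 126 and 128 CPM in the others (0.02). Gng11, a G protein subunit, had -1.58 against -0.26, Jdp2, an AP-1 family repressor, had -1.32 against -0.13, and Ltbp1, which binds latent TGF-beta, had -1.38 against -0.39. The differences between members and others were not tested. Ltbp1 and Adamts4 also depended on how members were chosen: with barcodes thinned to 2000 UMIs before the rule, their ratios were 0.13 and -0.89. Sspn, Ace, Marcks and Sult5a1, the other genes named by the rule, had ratios from -1.44 to -1.26 in members and from -1.17 to -0.71 in the others.

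**Figure D5:**
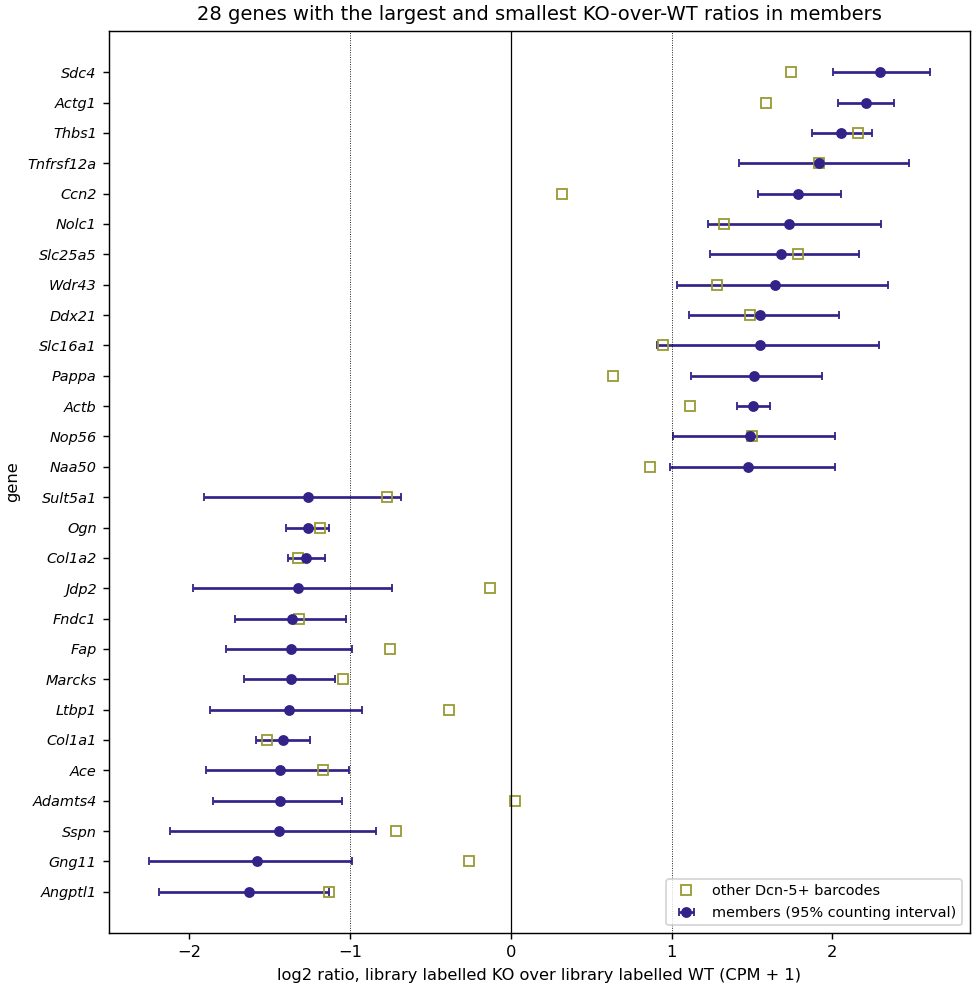
Log2 ratio of the KO library over the WT library for the 14 genes with the largest and the 14 with the smallest ratio in members after leaving out genes below 50 CPM in each library, below 100 UMIs in sum or with over 20% of their UMIs in 1 cell; filled points with 95% counting intervals are members and open squares are the other Dcn-5+ barcodes. Ccn2 lies at 1.79 in members and 0.32 in the others, and Adamts4 at -1.44 and 0.02.

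Few genes of the BMP and TGF-beta list passed 2-fold between the libraries. Of 31 compared, Bmp4 was at least 2-fold higher (89.6 and 188 CPM, 1.06; 0.21 in the others) and Inhba, the activin A subunit, at least 2-fold lower (60.8 and 24.4 CPM, -1.28; 0.28 in the others), with a median of 0.08. Fst, which binds the Inhba product, stood at 327 and 532 CPM (0.70). Of the metalloprotease list Mmp3, Mmp19, Adam12 and Timp3 were higher and Adamts4 lower among 18. The 29 dissociation genes had a median of 0.31 in members and 0.07 in the others, with Egr3 and Hspb1 at least 2-fold higher, and the part of tissue digestion in the results was not tested.

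Other lists are read against the background shares of 4.16% higher and 3.54% lower. The cartilage and tendon matrix list had 5 of 16 lower (Prelp, Ogn, Omd, Aspn, Fndc1) and Thbs1 higher, with medians of -0.80 in members and -0.69 in the others. Of 18 mechanical response genes Ccn2 was higher and Ccn5, Piezo2 and Itga11 were lower. Ccn5, a matricellular gene, stood at 69.9 and 8.60 CPM in members (-2.88 from 46 and 6 UMIs), with -2.69 in the others. Of 20 chemokine, cytokine and complement genes Ccl2, Ccl7, Cxcl13 and Csf1 were higher and none lower. None of the 7 WNT, 18 collagen processing and 10 lipid genes compared passed 2-fold. In the Dpp4/Pi16 list and the transcription factor list Creb5 was the 1 lower gene, at 222 and 67.4 CPM (-1.70), with 20.5% and 27.7% of its UMIs in 1 cell. In the Cxcl14/Col15a1 list G0s2 was the 1 lower gene of 20. Bst2 and Iigp1 were lower among 11 interferon genes, a share above background, and Slc3a2 was higher among 13 unfolded protein and amino acid stress genes.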

How the data were processed

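Dissociated TA muscle cells of 2 libraries, 1 labelled WT and 1 labelled KO, were measured by droplet RNA sequencing of 3′ ends. The values are deposited counts (raw UMIs by gene and barcode, not normalised). Cell Ranger 9.0.0 and build mm10 are named per the submitters' processing notes; per the file headers the version was 8.0.0 in the WT library and 9.0.0 in the KO library. The meaning of ND in the labels is not given in the sources used here.

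Barcodes were kept with at least 500 genes, at least 1000 UMIs and at most 10% mitochondrial UMIs, leaving 9732 of 11360 and 17651 of 19531. Members and gene lists were chosen with earlier results of these data known. Scrublet called 132 barcodes of the WT library and 1 of the KO library, none of them members. With that rate it did not work in the KO library, so no barcode was removed and doublets may remain. Counts were summed per group and library and divided by the group's total to give CPM, and ratios are log2 of CPM plus 1. Members were compared with other Dcn-5+ barcodes for genes with at least 20 CPM in the one group or the other in both libraries. At least 20 UMIs in both libraries were also required, in the same group or the other one. The libraries were compared for genes with at least 20 CPM in 1 of them and 50 UMIs over both.

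Named genes were those with the 24 largest and 12 smallest ratios of members over others in both libraries (at least 50 CPM), and the 14 largest and 14 smallest ratios of KO over WT (at least 50 CPM in 1 library and 100 UMIs over both). Added to these were the 5 leading genes each of Prg4-led and Gdf10-led members, and up to 4 genes per list. Predicted, mitochondrial, ribosomal and haemoglobin genes were left out, as were genes of which 1 cell held over 20% of the UMIs and, for KO over WT, genes over 5 times higher in barcodes without Dcn. List genes called at least 2-fold, and genes of the within-limits and thinned comparisons, were named after their values were seen. Some genes that the rule names are not reported here. Shares have Clopper-Pearson intervals, levels Poisson intervals and ratios exact conditional intervals, all at 95%. PCR and capture error are not covered by them. Clustering used scanpy 1.11.5, with numpy 2.4.6, scipy 1.17.1, pandas 2.3.3 and matplotlib 3.10.9 under python 3.11.15. The summing and ratio steps were tested on simulated data. Alternatives were other thresholds, floors and groups of the rule, thinning to 2000 UMIs and centring, and, chosen after seeing the data, the omission of the KO-only cluster, the main cluster as a limit or in place of the rule, members with 2 or more markers or with Gdf10, and a mean over Prg4-led and Gdf10-led members.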

Additional observations from a re-analysis of the deposited data

Results flagged for a closer look

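Adamts4 and Inhba were the 2 of 46 named genes at least 2-fold apart between the libraries in members whose ratio had the opposite sign in the other Dcn-5+ barcodes. Adamts4 had a log2 ratio of KO over WT of -1.44 in members and 0.02 in the others, and Inhba had -1.28 and 0.28. Each group is 1 pool of cells per library, and the difference between members and others was not tested. Adamts4 rested on 190 and 74 UMIs in members, and Inhba on 40 and 17.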

How the results depend on the processing

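The share of members among Dcn-5+ barcodes (4.69% and 2.59%) moved beyond its counting interval with the rule: a marker sum of at least 8 gave 2.66% and 1.92%, no limit on Dpp4 and Pi16 gave 6.35% and 3.69%, and the main cluster in place of the rule gave 11.7% and 6.78%. Dcn of at least 10 UMIs gave 3.84% in the KO library, leaving out the KO-only cluster gave 3.82% there, and thinning all barcodes to 2000 UMIs gave 3.31% and 3.93%, which turned the order of the libraries. Genes higher in members than in others (52) became 83 with no floor and 105 against within-limits barcodes, of which 29 were among the 52. Genes lower in members (211) became 970 with no floor and 96 with a floor of 50 CPM. For KO over WT, 194 higher and 165 lower genes became 51 and 56 of 1262 compared in thinned members and 378 and 286 in Prg4-led members alone, which hold fewer UMIs or cells. The mean over Prg4-led and Gdf10-led members gave 302 higher genes, and members in the main cluster alone gave 108 lower ones. Ratios that changed sign were Ltbp1 for KO over WT (0.13 with thinned barcodes), Rgs5 for members over others in the WT library (0.76 with no limit on Dpp4 and Pi16) and Fibin in the KO library (0.046 against within-limits barcodes); the cause was not tested. Adamts4 ranged from -1.53 to -0.26, the latter for the main cluster in place of the rule. C7 ranged from 2.19 to 2.81 and from 2.64 to 4.12. No library could be left out, since each group has 1. No paired analysis was possible because there is 1 library per genotype. Depth limits sparse genes such as Comp, with 97 and 30 UMIs in all members.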
